A study of Mus musculus with 6 samples.

Results

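Secreted angiogenic and vasoactive factors were followed in embryonic mouse ventricles in which Vhl is deleted. The set holds 10 genes chosen by symbol: Vegfa, Vegfb, Vegfc, Pgf, Angpt1, Angpt2, Apln, Adm, Edn1 and Mif. All 10 were among the 13843 genes of the deposited table. RNA came from 6 single C57BL/6 embryos at stage E12.5, from ventricles dissected free of atria and valves. Each library was made from 500 ng of total RNA and read in single 75 bp reads. All 6 embryos were labelled as carrying 2 floxed Vhl alleles (Vhl flox/flox). The 3 controls had wild-type Nkx2-5 on both chromosomes, and the 3 embryos labelled knockout carried 1 Nkx2-5 allele with Cre recombinase (Nkx2.5 Cre/+). Cre deletes the floxed part of Vhl in cells that express Nkx2-5 and in their progeny. Loss of Vhl and loss of 1 Nkx2-5 allele therefore cannot be told apart in this design, and no group with Cre and intact Vhl was analysed here. Per the labels, control 1 and knockout 1 were littermates, as were control 2 and knockout 2, while control 3 and knockout 3 are given litters of their own, although the design text counts 3 litters in all.

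VHL is the part of a ubiquitin ligase that binds hydroxylated hypoxia-inducible factors (HIF) and marks them for degradation. When it is lost, HIF builds up in the presence of oxygen and switches on genes that cells otherwise use under hypoxia, among them genes for secreted signals. In the embryonic ventricle, muscle cells and epicardium send such signals to the endocardium and to the growing coronary endothelium, which carry the receptors. The VEGF family and the angiopoietins act through receptor tyrosine kinases of endothelial cells, whereas apelin, adrenomedullin and endothelin are short peptides, cut from precursors, that act through receptors coupled to G proteins.

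Values of the knockouts are given in the order 1, 2. The labels were checked on Vhl itself. It had normalized values of 33.73, 36.33 and 38.60 in controls 1 to 3 and of 11.07 and 10.25 in the 2 knockouts numbered 1 and 2. The library labelled knockout 3 had 34.52, which lay inside the control range and goes against its label. Vhl differed between knockouts 1 and 2 and the controls by a log2 fold change of -1.67 ± 0.11 (adjusted p = 0.00025). Hif1a, which encodes a HIF subunit that VHL targets, was at 456.6, 404.6 and 447.0 in controls, fell to 185.2 and 162.5 in the 2 knockouts (log2 -1.32 ± 0.09, adjusted p = 0.00025) and stood at 473.1 in the library labelled knockout 3. This library is therefore shown apart, and the comparison set knockouts 1 and 2 against the 3 controls. A choice of libraries that follows Vhl makes the comparison partly circular for Vhl and for genes that move with it. Values are CPM-like reads with 1 scaling factor per library, as deposited, from totals of 9067805 to 12592902 reads. Markers of ventricular muscle were abundant, with Myl2 between 4271 and 5611 and Tnnt2 between 2661 and 3186 over the 6 libraries.

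Vegfa, Apln, Adm, Edn1 and Mif rose in knockouts 1 and 2, to between 2.07 and 6.22 times the control mean, and the other 5 genes did not pass the test. Apln and Adm changed most, and they started from the lowest levels of the 5 that rose. Adjusted p-values come from limma on log2(value + 1) with Benjamini-Hochberg adjustment over all 13843 genes and a threshold of 0.05, and log2 fold changes are on that scale, which understates the change of low genes. That test called 5 of the 10 genes higher and 0 lower, where it called 3.01% of all genes higher and 1.24% lower. The median log2 fold change was 0.75 over the 10 genes and -0.01 over all genes. The set was put together with earlier results of these data known, so its count is no independent evidence of a direction. In each of the 10 genes the values of knockouts 1 and 2 lay outside the control range, 6 above and 4 below it. The same held for 18.1% of all genes above the range and for 17% below it. The 4 that lay below, Vegfb, Vegfc, Pgf and Angpt1, did not pass. The edgeR test on recovered reads likewise called 5 of the 10 higher and 0 lower, beside 2.94% and 1.18% of all genes. Counted at an unadjusted p under 0.05, 8 of the 10 genes differed, where 17.8% of all genes did. An exact permutation test of a single gene cannot go below 0.1 with 3 against 2 embryos.

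**Figure D1:**
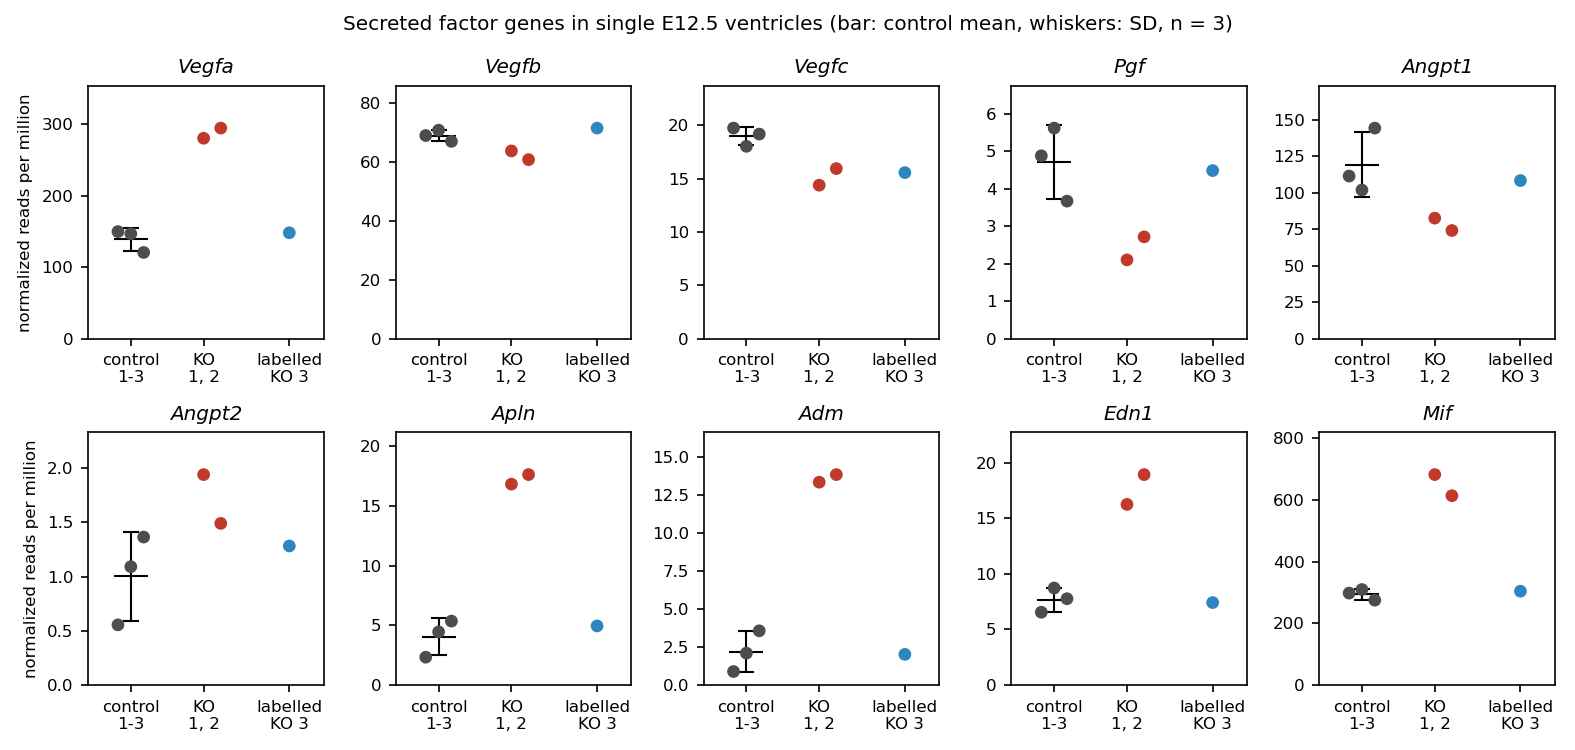
Normalized CPM-like values (vertical axes, each from 0) of the 10 genes in single libraries, with controls in grey, knockouts 1 and 2 in red and the library labelled knockout 3 in blue; the bar and whiskers give the control mean and SD (n = 3). Vegfa, Apln, Adm, Edn1 and Mif stand above the controls in both knockouts, while the blue point of these 5 genes lies inside the control range.

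Vegfa (ENSMUSG00000023951, chromosome 17, 46016993 to 46032369 on GRCm38) encodes the main mitogen and chemoattractant of endothelial cells. Its values were 149.7, 146.7 and 120.5 in controls 1 to 3 and 280.4 and 294.6 in the 2 knockouts. Both knockouts stood well above the highest control, and the library labelled knockout 3, at 148.1, stood among the controls. From a control mean of 139 ± 16 (SD, n = 3) the log2 fold change was 1.05 ± 0.10 (SE), with a limma adjusted p of 0.0014. Within litters, knockout 1 had 1.87 times the value of its littermate and knockout 2 had 2.01 times.

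The other VEGF ligands did not pass the test. Vegfb (chromosome 19, 6982473 to 6987651), a ligand of VEGF receptor FLT1 linked to heart muscle and fat metabolism, was at 68.90, 70.73 and 66.92 in controls and at 63.69 and 60.72 in the 2 knockouts (log2 -0.14 ± 0.07, adjusted p = 0.36). Vegfc (chromosome 8, 54077606 to 54187096), the ligand of FLT4 that drives lymphatic and coronary vessel growth, was at 19.75, 18.04 and 19.19 in controls and at 14.39 and 15.95 in the 2 knockouts (log2 -0.31 ± 0.11, adjusted p = 0.21). In the library labelled knockout 3 Vegfc was at 15.57, below the controls and beside the knockouts, so this gene did not follow Vhl over the 6 libraries. The 95% interval of its log2 difference ran from -0.57 to -0.04.

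Pgf (chromosome 12, 85166635 to 85177790), placental growth factor, binds FLT1 as Vegfb does. It had values of 4.882, 5.622 and 3.671 in controls, resting on 44, 67 and 35 reads, and of 2.101 and 2.716 in the 2 knockouts, resting on 26 and 31 reads. Both knockouts were below the lowest control, and the library labelled knockout 3 was at 4.487. The mean over knockouts 1 and 2 was 0.510 of the control mean, with a log2 fold change of -0.74 ± 0.22 that did not pass (adjusted p = 0.12, interval -1.25 to -0.23). Within litter 1 and litter 2, compared in a fit that blocks on litter, the difference passed (log2 -0.88 ± 0.22, adjusted p = 0.028). With 1 residual degree of freedom, that fit takes its error mostly from the spread pooled over genes. It called 4.92% of all genes higher and 3.21% lower.

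The order of the VEGF ligands differed between the groups. Genes are compared here per kilobase (kb) of annotated exon, since longer transcripts give more reads. On that scale Vegfb led Vegfa in each control, with a Vegfa to Vegfb ratio of 0.814, 0.777 and 0.675 in controls 1 to 3. The ratio was 1.65 and 1.82 in the 2 knockouts and 0.776 in the library labelled knockout 3. Vegfa stood 20.8, 17.7 and 22.2 times above Pgf in controls and 90.4 and 73.5 times above it in knockouts 1 and 2.

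Among the VEGF receptor genes, 2 rose as well. Flt1, whose product binds Vegfa, Vegfb and Pgf and also exists as a soluble decoy, was at 77.66, 85.17 and 81.08 in controls and at 113.3 and 112.5 in the 2 knockouts, and the library labelled knockout 3 had 81.13. Flt4, the Vegfc receptor, was at 33.06, 33.73 and 27.69 in controls, at 53.02 and 56.52 in the 2 knockouts and at 31.41 in the third library. In both genes the 2 knockouts stood clear of the other 4 libraries. The log2 fold change was 0.47 ± 0.07 for Flt1 (adjusted p = 0.012) and 0.78 ± 0.11 for Flt4 (adjusted p = 0.0077). With 1 knockout left, neither passed, while the fold changes stayed about as large. Flt1 was at 0.465 (adjusted p = 0.078) without knockout 1 and at 0.475 (0.063) without knockout 2. Flt4 was at 0.83 (0.058) and at 0.74 (0.064).

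Kdr, the receptor that carries most Vegfa signalling, went from 191 ± 15.3 to 212.3 and 216.4 and did not pass (log2 0.17 ± 0.08, adjusted p = 0.34). The co-receptor Nrp1 stood at 276 ± 25.7 in controls and at 396.0 and 335.3 in the 2 knockouts (log2 0.40 ± 0.10, adjusted p = 0.083). Nrp2 was at 22.8 ± 4.34, 30.47 and 30.76 (adjusted p = 0.21). Both co-receptors passed between littermates, with an adjusted p of 0.019 for Nrp1 and 0.026 for Nrp2. All 5 genes of this receptor list had fold changes above 0, as had 6670 of all 13843 genes, and in each the 2 knockouts lay above the control range, as in 18.1% of all genes.

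Apln (chromosome X, 48025146 to 48034853) encodes apelin, a peptide made by sprouting endothelium and by heart muscle that acts on the receptor APLNR. Its values were 2.330, 4.447 and 5.349 in controls, from 21, 53 and 51 reads, and 16.81 and 17.61 in the 2 knockouts, from 208 and 201 reads. The knockouts were alike and more than 3 times the highest control, and the library labelled knockout 3 was at 4.945. This gave a log2 fold change of 1.90 ± 0.27 (adjusted p = 0.0085, interval 1.28 to 2.52). Without knockout 1 the adjusted p was 0.078 at a log2 fold change of 1.94, and without knockout 2 it was 0.068 at 1.87. Aplnr, the receptor gene, did not pass, with 6.546, 13.76 and 12.06 in controls and 7.436 and 8.850 in the 2 knockouts (log2 -0.31 ± 0.28, adjusted p = 0.63). Apela, the second ligand of that receptor, was not among the genes of the table.

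Adm (chromosome 7, 110627661 to 110629820) encodes adrenomedullin, which widens vessels and is needed for heart and lymphatic development. It had the highest fold change of the 10 genes. Its values were 0.8875, 2.098 and 3.566 in controls, from 8, 25 and 34 reads, and 13.34 and 13.84 in the 2 knockouts, from 165 and 158 reads. The 8 reads of control 1 carry an exact Poisson 95% interval of 0.383 to 1.75 in normalized units, which covers counting error only. The library labelled knockout 3 had 22 reads, a value of 2.015. On the log2 scale the fold change was 2.29 ± 0.34 (adjusted p = 0.011, interval 1.5 to 3.07). Within litters, knockout 1 had 15.0 times the value of control 1 and knockout 2 had 6.60 times that of control 2. The call held without control 1, at a log2 fold change of 1.96 (adjusted p = 0.0067), and without control 3, at 2.59 (adjusted p = 0.0038). Without control 2 it held only narrowly, at 2.31 (adjusted p = 0.046). Without knockout 1 the adjusted p was 0.089, at a log2 fold change of 2.31, and without knockout 2 it was 0.078, at 2.26.

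The receptor side of adrenomedullin showed no call. Calcrl, the receptor subunit, stood at 80.2 ± 13.4 in controls and at 106.4 and 91.83 in the 2 knockouts (adjusted p = 0.31; between littermates 0.022). Ramp2, the accessory protein that makes it an adrenomedullin receptor, was at 85.9 ± 11.3, 93.51 and 102.0 (adjusted p = 0.43). Pam, the enzyme that amidates the peptide, was at 1989, 1627 and 1658 in controls and at 1752 and 1296 in the 2 knockouts, so its ranges overlapped (adjusted p = 0.54). None of the 6 measured genes of this list passed.

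Edn1 (chromosome 13, 42301476 to 42307990) encodes endothelin-1, a peptide made mostly by endothelium and endocardium that constricts vessels and acts on heart muscle and neural crest. Its values were 6.546, 8.726 and 7.762 in controls and 16.25 and 18.93 in the 2 knockouts, and the library labelled knockout 3 had 7.417. The 2 knockouts lay at 2.29 times the control mean of 7.68 ± 1.09 (SD, n = 3), and the remaining 4 libraries lay close together. The log2 fold change was 1.10 ± 0.16 (adjusted p = 0.0096). Without knockout 1 the adjusted p was 0.060, at a log2 fold change of 1.21, and without knockout 2 it was 0.080, at 1.00. Exons of Edn1 overlap those of Gm47118 on the opposite strand, and reads of this pair cannot be told apart because the libraries did not mark strand.

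Ednra, the endothelin receptor of muscle and mesenchyme, moved the other way from its ligand. It was at 56.14, 52.44 and 58.21 in controls and at 38.96 and 32.86 in the 2 knockouts, and the library labelled knockout 3 had 55.95. The log2 fold change was -0.62 ± 0.10, a fall that passed at an adjusted p of 0.015. The adjusted p was 0.051 without control 3 and 0.075 without knockout 2. Ednrb, the receptor form of endocardium and endothelium, was at 284 ± 12 in controls and at 263.3 and 178.8 in the 2 knockouts, a spread between the knockouts that exceeded the difference of knockout 1 from the controls (adjusted p = 0.22; without knockout 1, 0.021). Ece1, which cuts the endothelin precursor, was at 309 ± 21.0, 300.5 and 328.8 (adjusted p = 0.91). Edn2 and Edn3 were not among the genes of the table.

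Mif (chromosome 10, 75859353 to 75860240) encodes macrophage migration inhibitory factor, a small cytokine stored in many cell types that signals through CD74 and CD44. It was the most abundant gene of the set, at 297.7, 309.3 and 274.9 in controls and 681.6 and 613.2 in the 2 knockouts, and the library labelled knockout 3 had 303.9. The controls spread little, and the 2 knockouts lay at 2.20 times their mean of 294 ± 17.5 (SD, n = 3). The log2 fold change of 1.14 ± 0.08 had the smallest adjusted p of the 10 genes, 0.00043. Ranked by p, Mif was number 38 of all genes and Vegfa number 86. Ddt, a close relative on the same chromosome, was at 6.44 ± 0.599 in controls and at 9.214 and 8.763 in the 2 knockouts and did not pass (adjusted p = 0.20). The receptor gene Cd44 was at 75.7 ± 6.44, 100.5 and 86.75 (adjusted p = 0.16), and Cd74 was not among the genes of the table. Processed copies of Mif exist in the mouse genome, and none of the copies with a Mif-ps name was in the table. Whether the value of Mif holds reads shared with such copies was not tested.

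Vegfa and Mif passed in each of 13 alternatives that left out knockout 3, which changed the pseudocount, filter, scaling, test, pairing or a single embryo. Their log2 fold changes ran from 0.95 to 1.11 for Vegfa, with adjusted p up to 0.020, and from 1.06 to 1.21 for Mif, with adjusted p up to 0.0072. Apln, Adm and Edn1 passed in 11 of the 13, the exceptions being those with 1 knockout left.

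The 2 angiopoietins act on the same receptor, TEK. Angpt1 (chromosome 15, 42424723 to 42676977), which comes from muscle and mesenchyme and stabilizes vessels, was at 111.5, 101.9 and 144.4 in controls and at 82.60 and 74.13 in the 2 knockouts, and the library labelled knockout 3 had 108.4. Both knockouts were below the lowest control, but the controls themselves spread by 22.3 (SD, n = 3) around 119. The log2 fold change of -0.59 ± 0.14 did not pass in limma (adjusted p = 0.066) or in edgeR on recovered reads (0.076), while it passed between littermates (0.0067) and in DESeq2 (0.0035). Gm17473 overlaps Angpt1 exons on the opposite strand, with values of 0.777 to 2.20 over the 6 libraries.

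Angpt2 (chromosome 8, 18690263 to 18741562), made by activated endothelium, is a context-dependent antagonist of the same receptor. It was at 0.5547, 1.091 and 1.364 in controls, from 5, 13 and 13 reads, and at 1.940 and 1.490 in the 2 knockouts, from 24 and 17 reads. At this depth the exact Poisson intervals of both knockouts overlapped those of each control, and the difference was not detectable (log2 0.46 ± 0.27, adjusted p = 0.44, interval -0.16 to 1.07). The receptor gene Tek was at 186 ± 14.2 in controls and at 185.8 and 179.6 in the 2 knockouts (adjusted p = 0.92, interval of the log2 difference -0.21 to 0.17). Tie1, its partner receptor, was at 192 ± 8.32, 212.0 and 230.9 (adjusted p = 0.21).

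**Figure D2:**
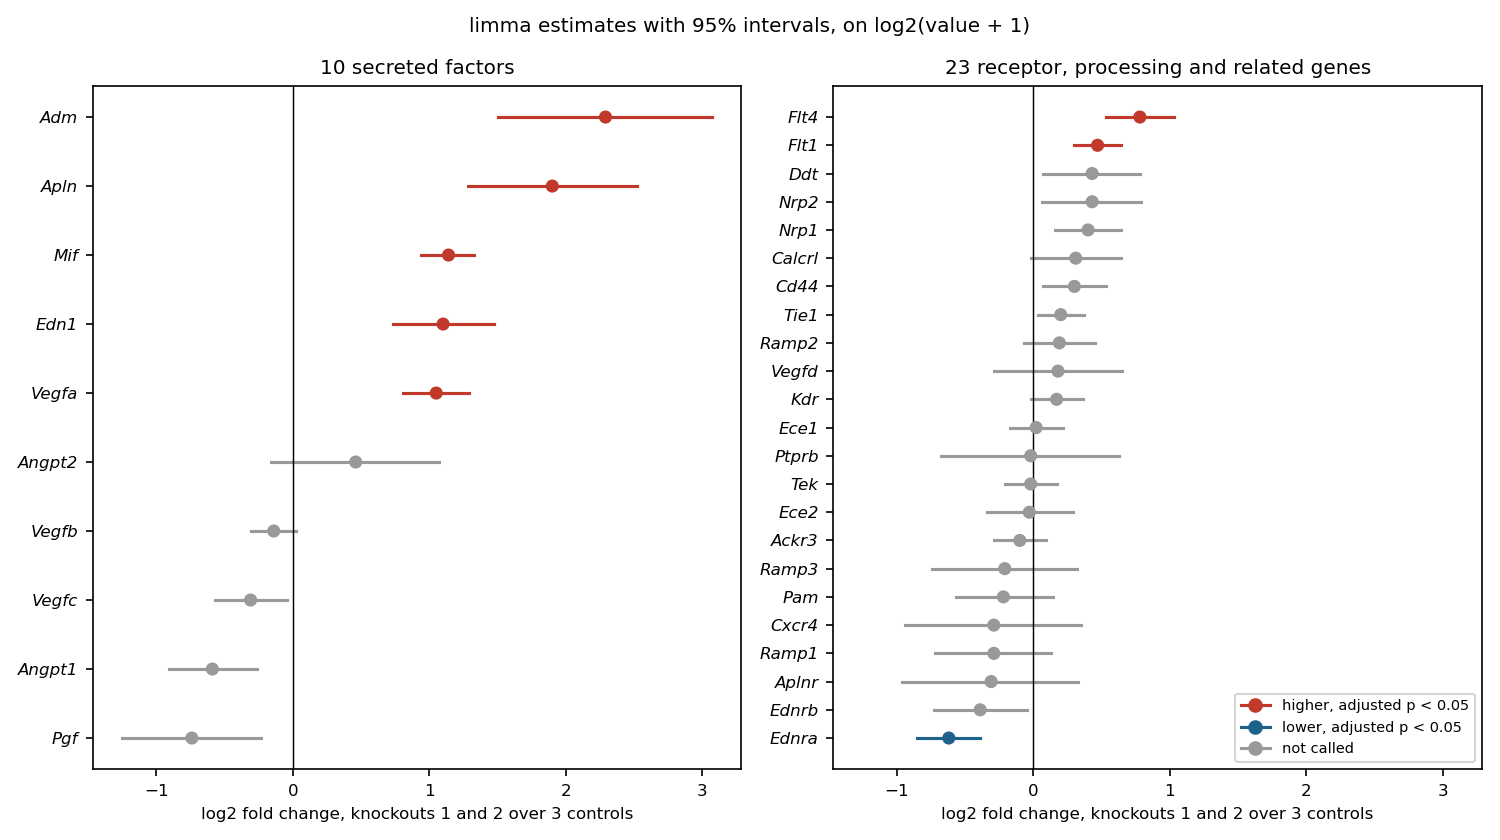
Log2 fold changes of knockouts 1 and 2 over 3 controls (horizontal axes, on log2(value + 1)) with 95% limma intervals, for the 10 secreted factors at left and 23 receptor, processing and related genes at right. Red marks genes higher and blue genes lower at an adjusted p under 0.05. The 5 called ligands lie between 1.05 and 2.29, and the called receptor genes Flt4, Flt1 and Ednra lie at 0.78, 0.47 and -0.62.

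Of the 29 genes listed as receptors, processing enzymes or relatives of the 10 factors, 23 were in the table. The test called 2 of them higher (Flt1 and Flt4), 1 lower (Ednra) and left 20 uncalled, beside 3.01% higher and 1.24% lower among all genes. Their median log2 fold change was 0.02, against -0.01 over all genes. The called share was 3 of 23 here and 5 of 10 among the ligands, and that difference was not tested.

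Per kb of exon, the 10 genes spanned more than 3 orders of magnitude in controls. Mif stood at 395 ± 23.5 (SD, n = 3) normalized reads per kb, above 99.3% of genes. Vegfb (42.9 ± 1.19), Vegfa (32.4 ± 3.74) and Angpt1 (22.9 ± 4.28) came next, and the ranges of Vegfa and Angpt1 did not overlap, with 28.1 to 34.9 and 19.6 to 27.7. Vegfc followed at 7.76 ± 0.356 and Edn1 at 3.59 ± 0.511. Pgf (1.63 ± 0.339), Adm (1.35 ± 0.829) and Apln (1.28 ± 0.492) overlapped and cannot be ordered, and Angpt2 was lowest at 0.272 ± 0.112. In knockouts 1 and 2, Adm, at 8.24 and 8.55, stood beside Edn1, at 7.59 and 8.85, and above Vegfc, at 5.87 and 6.51. Vegfa, at 65.4 and 68.8, took the place behind Mif. Angpt1 stood 142, 66.3 and 75.1 times above Angpt2 in controls and 30.2 and 35.3 times above it in knockouts 1 and 2, a ratio that rests on few Angpt2 reads.

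**Figure D3:**
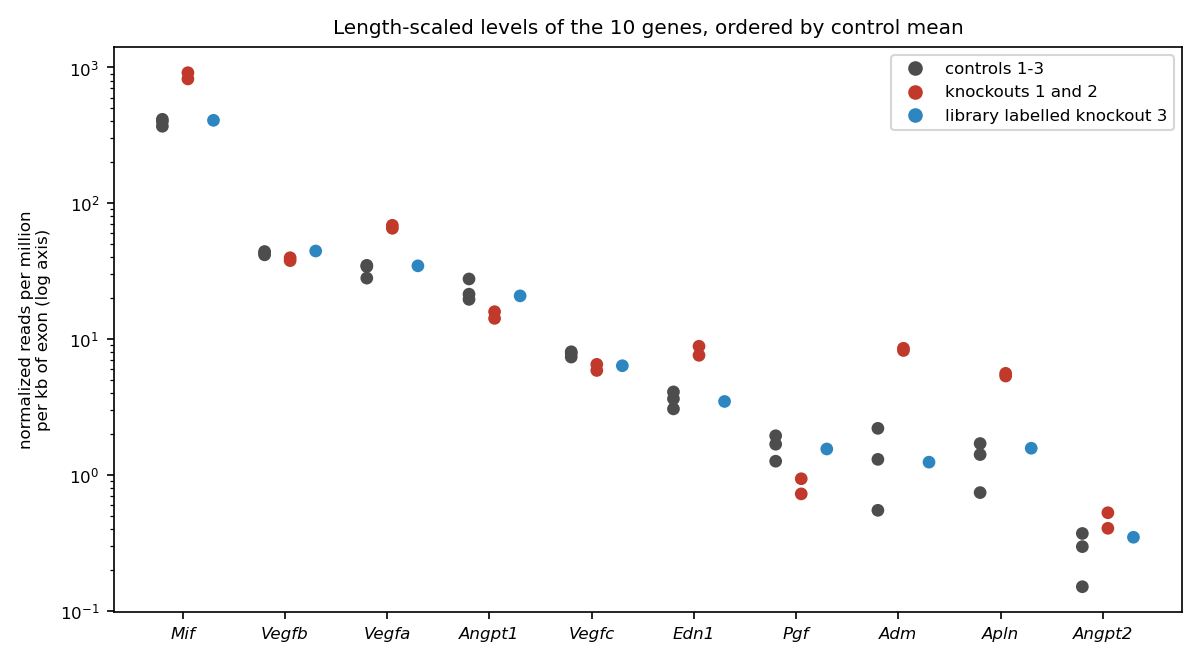
Normalized CPM-like values per kb of exon (log axis) for the 10 genes, ordered by control mean, with controls in grey, knockouts 1 and 2 in red and the library labelled knockout 3 in blue. Adm moves from a control mean of 1.35 to 8.24 and 8.55 in the 2 knockouts, and Vegfa passes Vegfb.

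The promoters of the 10 genes, called or not, were searched for the core letters that HIF binds. Windows of 300 bases, 250 before and 50 after each start site, came from RefSeq on GRCm38.p6 and were found for 8 of the 10 genes, in 10 windows, with no entry for Angpt1 and Angpt2. The letters searched were ACGTG and GCGTG, each on both strands, and no match lay in the longer palindrome CACGTG. Among 32851 windows of the same length, 19.6% held ACGTG, 32.4% held GCGTG and 43.8% held either. Of the called genes, Mif, Edn1 and Adm had a match in their window. In Mif and Edn1 the match lay after the start site, and in Adm both matches lay before it. Vegfa had matches only in a second window, at a start site inside the gene, and Apln had none. Among uncalled genes, Vegfb and Pgf held GCGTG and Vegfc neither form. Stretches of Mif, Edn1 and Vegfa, which rose, are shown 5′ to 3′ along the gene's strand, with the matched letters in capitals. Those of the uncalled Vegfb and Pgf are not shown. The matches in capitals lie on the opposite strand and so read CACGT or CACGC, and the Vegfa stretch also holds GCGTG in lower case.
Mif, chr10:75860232-75860260, minus strand, match 30 bases from the start site: actgagctgggtCACGTagctcaggtccc
Edn1, chr13:42301485-42301513, plus strand, match 22 bases from the start site: tatctctggctgCACGTtgcctgtgggtg
Vegfa, inner start site, chr17:46025358-46025386, minus strand: ggagtgcgtgccCACGTcagagagcaaca

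The Adm promoter held GCGTG in 2 places, 90 and 54 bases before the start site. Its 250 bases upstream are shown as the gene with the highest fold change, from chr7:110627407-110627656 on the plus strand.
Adm: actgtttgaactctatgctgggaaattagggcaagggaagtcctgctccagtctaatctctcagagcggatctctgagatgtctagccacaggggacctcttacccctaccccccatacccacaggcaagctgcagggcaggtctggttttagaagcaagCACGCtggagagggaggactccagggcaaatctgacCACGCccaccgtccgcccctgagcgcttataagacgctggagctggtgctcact

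For Vegfa the 250 bases upstream of the main start site, chr17:46032378-46032627 on the minus strand, held no match. They are shown beside those of Adm because Vegfa rose without either form in that window.
Vegfa: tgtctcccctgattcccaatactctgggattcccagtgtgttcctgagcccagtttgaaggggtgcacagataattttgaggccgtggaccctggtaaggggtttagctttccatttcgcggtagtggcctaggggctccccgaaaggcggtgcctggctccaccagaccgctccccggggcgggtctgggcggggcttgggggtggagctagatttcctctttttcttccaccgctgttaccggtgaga

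A match describes letters in a window, and the absence of a match says nothing on sites elsewhere in the gene. Regulatory sequence beyond these windows was not analysed here.

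Vegfa lies on chromosome 17, as does Nkx2-5, the locus that carries Cre in the knockouts, at a distance of 19.2 Mb. Of 230 measured genes from Nkx2-5 to Vegfa, both included, 11 were called higher and 3 lower, 6.09% beside 4.25% of all genes. Vegfa itself is 1 of the 11. Within 1 Mb of Vegfa on either side, 0 of 43 other genes were called. Whether sequence linked to the Cre allele plays a part in the Vegfa value was not tested.

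Some markers of the cells that make or receive these factors shifted too, beside 3.01% of all genes called higher and 1.24% called lower. In bulk tissue, fewer cells of a type and less RNA per cell cannot be told apart. All 10 endothelial markers had fold changes above 0, as had 6670 of all 13843 genes, and 2 passed (Emcn and Egfl7). Their summed value was 993.8 to 1098 in controls and 1290 and 1383 in the 2 knockouts, and the library labelled knockout 3 had 972.2. The ratio of knockouts 1 and 2 to controls was 1.26. The ratios of the 10 single markers ran from 1.16 (Cdh5) to 2.14 (Sox17, at 1.468 to 3.021 in controls and 3.152 and 5.608 in the 2 knockouts, not called). Beside these, Edn1 had a ratio of 2.29, Apln of 4.26 and the summed VEGF receptor genes of 1.29. Of 5 endocardial markers 0 passed, with a ratio of 1.08. Epicardial markers stood at 266.7 to 357.1 in controls and at 476.7 and 433.3 in the knockouts (2 of 7 passed, Wt1 and Upk1b). Summed smooth muscle and pericyte markers stood at 1345 to 1665 and at 2578 and 2587, and the 3 of 7 that passed were Acta2, Tagln and Cnn1. These 3 make up most of the sum, with Acta2 alone at 933 ± 116 in controls and at 1569 and 1515 in the knockouts. Pdgfrb, at a ratio of 1.31, and Cspg4, at 1.09, did not pass, and Myh11 and Rgs5 stayed under 4 in each library. The sum of 8 heart muscle markers had a ratio of 0.978 and 0 of 8 passed. Myh7, at 11800 in controls, is its largest part, and single ratios ran from 0.806 (Ryr2) to 1.47 (Nppa). The median log2 fold change of the 8 was -0.16. In addition, 0 of 7 macrophage, 0 of 6 red cell and 0 of 4 cushion markers passed. The cushion marker Twist1 spread widely, at 1.109, 23.83 and 14.58 in controls and at 4.203 and 18.23 in the 2 knockouts. Sox9 and Postn also spread widely, and Tbx20 little. Whether the share of cushion tissue differed between libraries was not tested. Of 3 measured atrial markers 1 passed (Myl7), with a ratio of 1.26 for their sum. The part of these shifts in the values of the secreted factors was not tested.

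**Figure D4:**
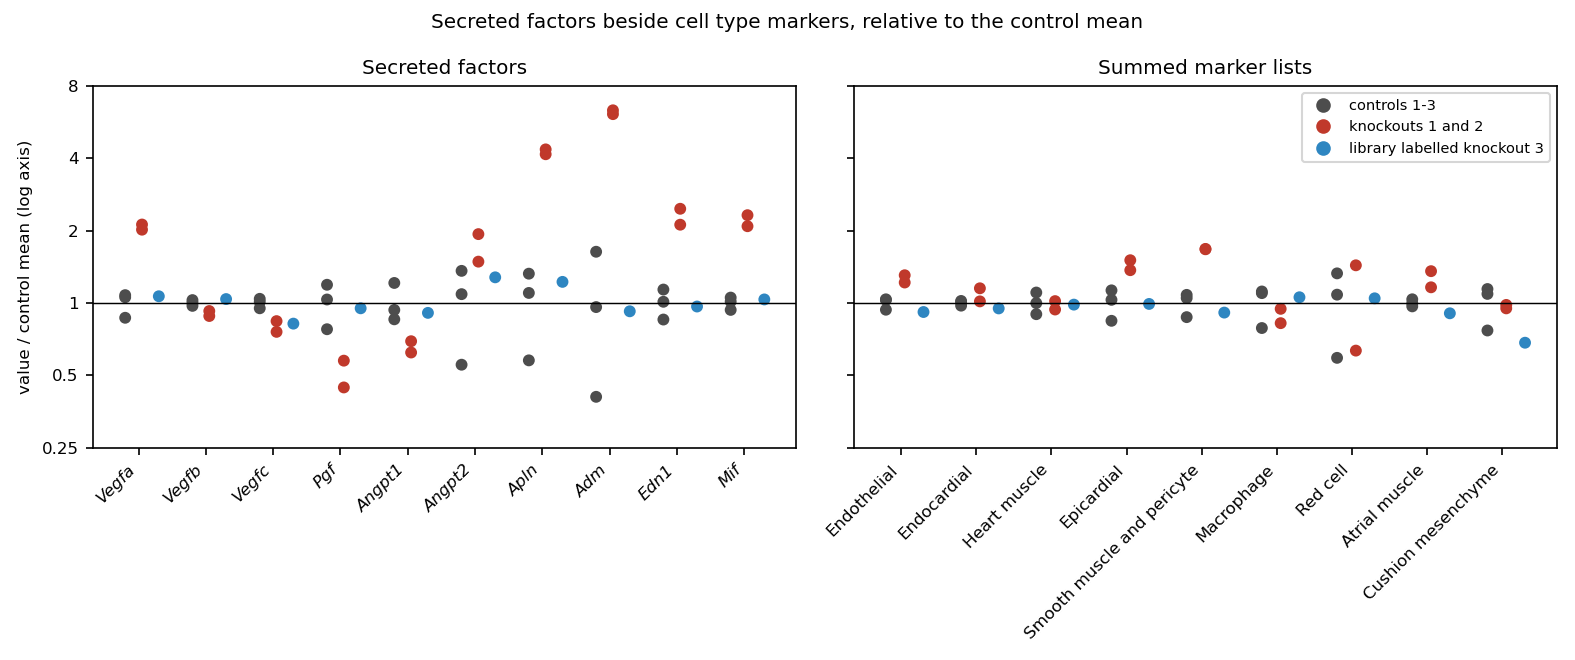
Values relative to the control mean (log axis, 1 is the control mean) for the 10 secreted factors at left and for summed cell type marker lists at right, by library. Endothelial, epicardial and smooth muscle sums stand above the controls in knockouts 1 and 2, at ratios of 1.26, 1.44 and 1.68, and Adm and Apln reach 6.22 and 4.26. The smooth muscle sum rests mostly on Acta2, Tagln and Cnn1.

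Among 41 other secreted vascular factors in the table, 2 were called higher and 1 lower, shares near the 3.01% and 1.24% of all genes, with a median log2 fold change of 0.13. The called genes are described singly, and the list's count is no result about these factors. Pdgfb, which endothelium uses to recruit mural cells, was at 3.550, 5.454 and 4.615 in controls and at 9.375 and 11.13 in the 2 knockouts (log2 1.03 ± 0.20, adjusted p = 0.030). Egfl7, an endothelial matrix factor that is also in the endothelial marker list, rose by 0.46 ± 0.08 (adjusted p = 0.023). The Wnt modulator Sfrp1 fell (log2 -0.52 ± 0.09), from 260 ± 21.4 to 194.0 and 169.6 (adjusted p = 0.024). Of 4 measured enzymes of nitric oxide, prostanoid and heme metabolism, prostacyclin synthase Ptgis passed, with 18.9 ± 1.53 in controls and 27.24 and 29.09 in the knockouts (log2 0.56 ± 0.11, adjusted p = 0.037). The fold changes of these 4 genes moved little when single embryos were left out, from 0.90 to 1.15 for Pdgfb, 0.40 to 0.51 for Egfl7, 0.49 to 0.60 for Ptgis and -0.61 to -0.42 for Sfrp1, but their adjusted p lay near the threshold. Leaving out single embryos raised the adjusted p to 0.16 for Pdgfb and Ptgis (without knockout 2), 0.14 for Egfl7 (without knockout 1) and 0.12 for Sfrp1 (without knockout 2). Leaving out any single embryo lost the calls of Pdgfb, Egfl7 and Ptgis, and that of Sfrp1 was lost without each embryo but control 3.

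The library labelled knockout 3 did not share the pattern. Of the 10 factors, 8 had a value inside the control range there, among them the 5 that rose in knockouts 1 and 2. Vegfb lay above the range, at 71.43, and Vegfc below it. With all 6 libraries as labelled, limma called 0 of the 10 genes and 0 genes in all (smallest adjusted p 0.77), with 7 of the 10 and 859 genes (6.21%) under 0.05 before adjustment. edgeR called 0 genes too (7 of the 10 and 907 genes unadjusted), and DESeq2 called 11 genes (0.0795%), none of them among the 10 (6 of the 10 and 800 genes unadjusted), where Apln had the smallest adjusted p of the set, 0.062. The log2 fold changes with 6 libraries were 0.73 for Vegfa, 1.37 for Apln, 1.53 for Adm, 0.72 for Edn1 and 0.77 for Mif.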

How the data were processed

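Ventricular RNA of 6 embryos was measured in 3 control libraries and 3 labelled knockout. Per the submitters' processing notes, CASAVA 1.8.2, cutadapt 1.3 and RSEM 1.2.3 were used with GRCm38. No source used here gives the annotation release, filter or scaling. The authors deposited a normalized signal. In each column 100% of values were whole multiples of 1 step within 0.01 reads, so whole reads were recovered, and the scaling matched TMM as edgeR computes it. Each listed gene reached at least 1.01 in 3 libraries, and genes below that are not analysed here. RSEM shares reads between similar loci. Symbols, coordinates and exon lengths came from GENCODE M21 on GRCm38 (13675 genes with a symbol, 168 without).

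The test on log2(value + 1) was limma-trend (limma 3.58.1, R 4.3.3), over 3 controls and knockouts 1 and 2, with no covariate. edgeR 4.0.16 (quasi-likelihood) and DESeq2 1.42.0 were run on recovered reads as alternatives. The script was tested on simulated data. P-values set the group difference against the spread between single embryos. In limma that spread is drawn partly from genes of similar level, and the main fit takes no account of litter. Litter numbers in the labels pair libraries 1 and 2. Deviations from group means correlated at 0.20 and 0.28 in these litters and at 0.01 for the libraries numbered 3. The knockout mean took in knockout 3, so the knockout deviations also carry its difference from knockouts 1 and 2. These correlations are therefore no clean measure of likeness within litters. The labels give the libraries numbered 3 separate litters, 4 in all, whereas the series' design text speaks of 3 litters. Whether those libraries are littermates is uncertain. The members and gene lists were chosen with earlier results of these data known. Named genes were the 10 factors, Vhl and its partners, a fixed set of receptors, and called genes of the lists. Other genes named beside these were chosen after their values were seen. Some genes that this rule or the marker lists take in are not reported here. For likeness between patterns, Pearson r was taken over the 6 libraries.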

Additional observations from a re-analysis of the deposited data

How the results depend on the processing

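Between knockouts 1 and 2 and the controls 588 genes were called. The count was 0 with all 6 libraries as labelled and 1125 with litter as a replicate block, and it ran from 190 to 387 when single embryos were left out. The 5 factors called higher became 0 with all 6 libraries and ran from 2 to 5 with single embryos left out, with 2 remaining, Vegfa and Mif, without either knockout. The number called lower, 0, became 1 in DESeq2 (Angpt1) and 2 under the litter block (Pgf and Angpt1), and stayed 0 without any single embryo. Of the receptor and related genes, 3 were called, 0 with all 6 libraries, 6 under the block, and 0 to 3 with single embryos left out. The block changed no other call among the 10 factors. Without a knockout, the lone one is assumed to vary like the controls. Pseudocounts of 0.25 or 4 and other scalings kept each call of the 10 factors. A mean of at least 5 kept each call of the factors it retained, but it removed Pgf and Angpt2. Scaling to a common total moved the median of all genes from -0.01 to -0.02. Depth limits Angpt2, with 5 to 24 reads, and Adm and Pgf in controls.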

Other observations

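The library values of the 5 factors that rose were compared with those of 6738 other named genes above the median level. Over the 6 libraries, Mif was most like the keratin gene Krt19 and the pyruvate kinase gene Pkm, with a Pearson r of 1.00 for each. Edn1 was most like Sipa1 (r = 0.999), a Rap GTPase activator, and Sparcl1 (0.998), a secreted matrix protein. Vegfa was most like Lonp1 (0.997), a mitochondrial protease, and its relative's receptor Flt4 (0.996). Apln was most like Rpl13 (0.995) and Tent5a (0.993), and Adm like Spidr (0.996). Rpl13 encodes a ribosomal protein. With 2 libraries apart from the other 4, most of each r comes from that split, and these values are a description.

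Of the 41 other secreted factors, 12 had both knockouts above the control range and 5 had both below it, the called genes included. The shares over all genes were 18.1% and 17%, and the counts are no result about these factors. The littermate p-values given here come from the fit with 1 residual degree of freedom, which takes its error mostly from the spread pooled over genes. Some of the factors outside the range did not pass the test. The natriuretic peptide gene Nppb was at 84.64 to 196.8 in controls and at 280.5 and 264.0 in the knockouts (limma adjusted p = 0.14; between littermates 0.00077). The lipase inhibitor gene Angptl4 was at 3.252 to 3.692 and at 7.355 and 6.221 (0.051; between littermates 0.045). The guidance factor Slit2 was at 238.8 to 349.9 and at 228.9 and 166.6 (0.18; between littermates 0.00037), and it was at 186.4 in the library labelled knockout 3. These genes were chosen after their values were seen.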
